A study of Mus musculus with 6 samples.

Results

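A set of 10 mouse genes was followed, of 22032 in the deposited table: Slc13a5, Cnnm4, Stim1, Gja1, Fam20a, Adgrf4, Relt, Nhs, Fam83h and Tuft1. They were chosen by name as genes that are linked to enamel or tooth defects when mutated, that are expressed in the cell line studied, and that do not encode enamel matrix proteins. That they are detected is therefore part of the choice and not a finding. RNA was sequenced from mDE6, a mouse cell line whose tissue of origin the labels do not state. It carried either a control short hairpin RNA (shControl, 3 libraries) or a hairpin against Arl4c (shArl4c, 3 libraries), which encodes an ARF-like small GTPase. By its title the study is about how tooth germs develop. The labels tell apart 1 Arl4c hairpin group and do not say whether libraries came from separate cultures, so p-values measure the spread between these libraries, which may be technical, and effects of the hairpin other than loss of Arl4c cannot be told apart.

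Enamel is laid down by ameloblasts, epithelial cells that first secrete a protein matrix and then remove it while calcium and phosphate are brought in and protons and magnesium are handled. Many inherited enamel defects lie outside the matrix proteins, in genes for ion and metabolite transport, for kinases of the secretory pathway, for cell surface receptors, and for scaffolds of the cytoskeleton and cell junctions. Most of these genes are also active in other tissues, which is why mutations in several of them give syndromes of the eye, brain, kidney or immune system together with the tooth defect.

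Values are CPM, counts per megaread of a library size that the authors adjusted. Reads counted over the genes of the deposited table came to 12316770 to 14976113 per library, so that 1 read was worth 0.0672 to 0.0827 CPM. Libraries are named by the numbers in the table's columns, shControl 1, 2 and 3 and shArl4c 2, 3 and 4. The library shArl4c 3 stood apart: its counts differed from those of the other libraries of its group by a chi-square of 5.24 to 6.19 for each degree of freedom, where it was 1.56 to 2.40 for the other pairs within groups and 30.9 to 36.6 between groups. Arl4c itself was 20.7, 21.0 and 20.1 CPM across the shControl libraries, against 6.75, 7.42 and 6.89 CPM across the shArl4c libraries, 2.94-fold lower. The levels of marker genes did not place the line among ameloblasts. Genes are called measured where they were in the deposited table, whose rows all held 6 reads or more over the 6 libraries. A marker absent from it may have had fewer reads. Of 11 ameloblast markers, 3 were measured (Mmp20, Sp6 and Odaph). Their summed level was 0.590 to 1.01 CPM with the control hairpin and 0.675 to 0.995 CPM in shArl4c. Mmp20 was at 0 in all shControl and Sp6 at 0 in all shArl4c libraries. The 11 epithelial markers measured summed to 8.64 to 10.01 CPM with the control hairpin and 10.4 to 10.9 CPM in shArl4c, while 11 mesenchymal markers summed to 31598 to 33019 CPM and 18951 to 19818 CPM. Of the mesenchymal markers 9 were tested, and 5 fell and 2 rose. Col1a1, from a mean of 17787 to 10139 CPM, and Col1a2, from 9443 to 5240 CPM, made up most of the summed level. The 2 that rose were Pdgfra, from 138 to 234 CPM, and Pdgfrb, from 247 to 277 CPM. Over all 14740 tested genes 18.0% fell and 18.9% rose by the same limma test, at an adjusted p under 0.05. Of 5 tested osteoblast markers 3 fell and 1 rose. Runx2 fell from a mean of 143 to 112 CPM, Sp7 from 23.4 to 1.37 CPM and Alpl from 45.1 to 20.5 CPM. Spp1 rose from 372 to 766 CPM and made up most of the summed level. The 7 measured summed to 576 to 598 CPM in shControl and 875 to 929 CPM in shArl4c. The 2 odontoblast markers measured summed to 85.2 to 93.8 CPM and 158 to 165 CPM, and Nes, the 1 tested, rose from a mean of 89.3 to 161 CPM. Nes made up nearly all of that sum. Dmp1 had means of 0.536 and 0.501 CPM, and Dspp was not measured, so the sum says little about odontoblasts. Of 3 tested leukocyte markers Cd68 rose, from 2.79 to 5.77 CPM, and the 6 measured summed to 6.87 to 8.05 CPM and 9.29 to 10.7 CPM. The part of these marker changes in the results on the enamel defect genes was not tested.

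Most of the 10 genes were lower when Arl4c was depleted. The citrate transporter gene Slc13a5 fell 4.97-fold, and the receptor gene Adgrf4, the kinase family gene Fam20a and the scaffold gene Nhs fell 2.27- to 2.58-fold. The calcium sensor gene Stim1, the magnesium transport gene Cnnm4 and Tuft1 fell by smaller amounts, 1.49-, 1.44- and 1.22-fold. Fam83h rose 1.251-fold and Gja1 1.09-fold, and Relt did not pass the test. All 10 passed the filter on low values, a mean over libraries of 1 CPM or more. By limma, with p-values adjusted over 14740 genes and a threshold of 0.05, 7 of the 10 were lower and 2 higher. Over all genes tested, 18.0% were lower and 18.9% higher by the same rule, 36.9% in all. Groups did not overlap for 9 of the 10 genes, against 46.8% of all genes (22.5% lower and 24.3% higher). A fall of at least 2-fold that passed the test was seen in 4 of the 10 and in 3.45% of all genes, and a rise of that size in 0 of the 10 and in 1.98%. With edgeR 7 of the 10 were lower and 1 higher (36.0% of all genes called), with DESeq2 6 and 1 (27.9%), and by limma without shArl4c 3 again 7 and 2 (45.1%). The median log2 fold change of the 10 genes was -0.53, and that of all tested genes 0.01. Since the genes were picked with results of these data known, these shares describe the chosen genes and are not evidence about enamel defect genes in general. In bulk RNA, fewer cells of a type that expresses a gene and less of its RNA per cell cannot be told apart.

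**Figure D1:**
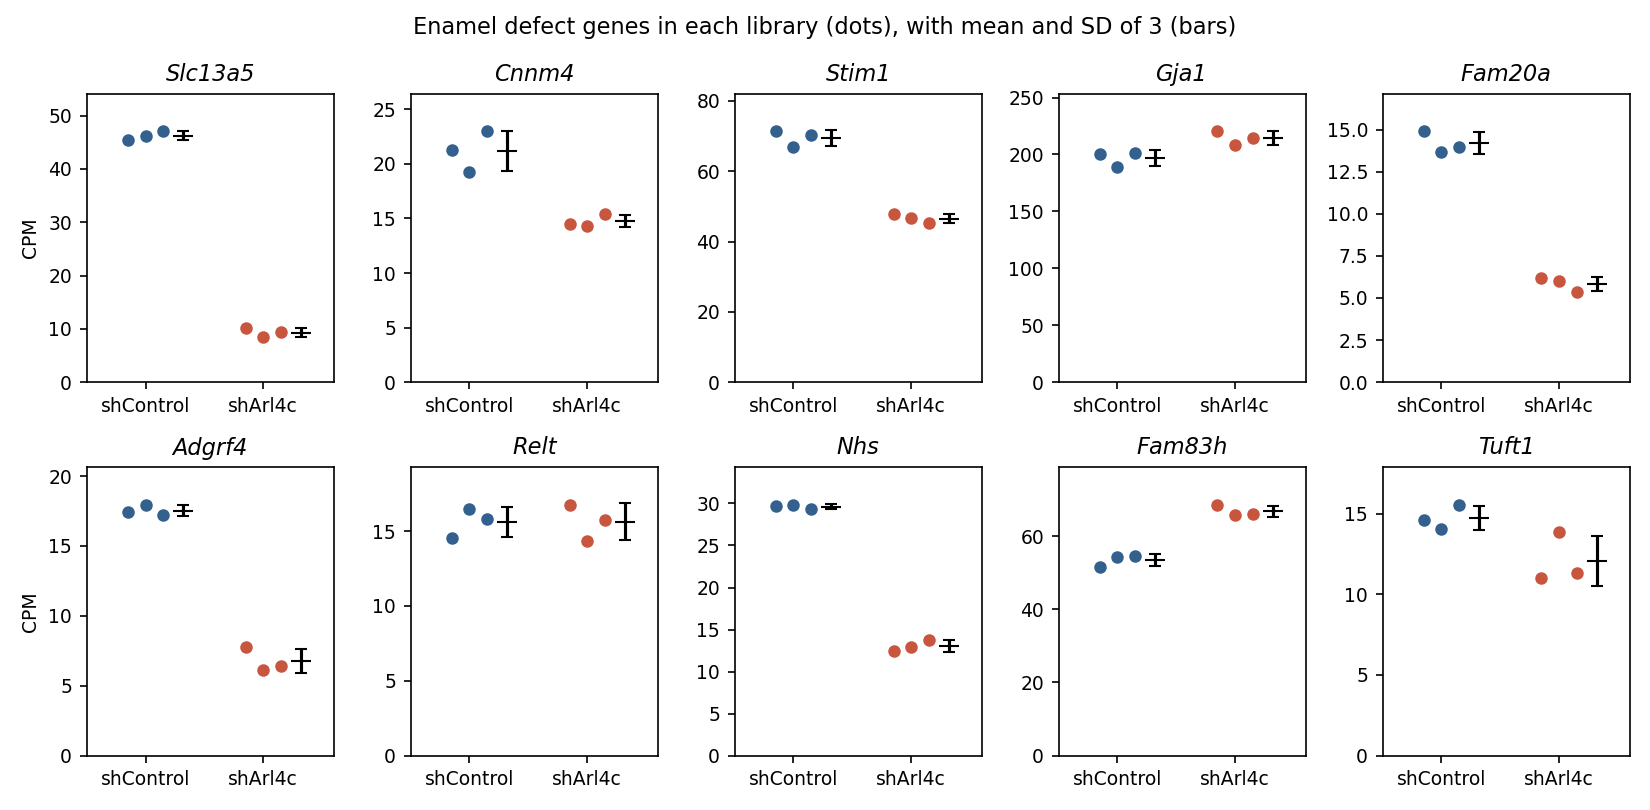
CPM (vertical axes, each from 0) of the 10 genes in the 3 shControl and 3 shArl4c libraries; dots are libraries and bars are the mean and SD of 3. Groups are apart for all genes but Relt, and the gap is widest in proportion for Slc13a5, at 45.5 to 47.1 CPM against 8.47 to 10.1 CPM.

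**Figure D2:**
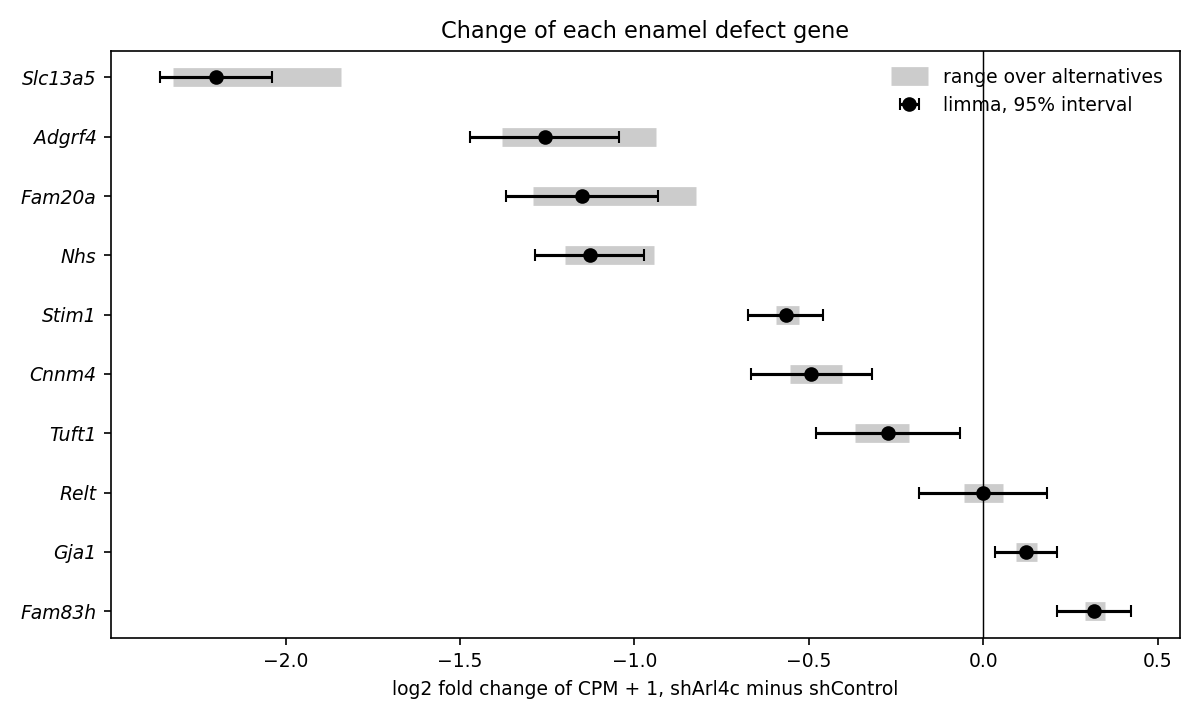
Log2 fold change of CPM + 1, shArl4c minus shControl (horizontal axis), for each gene; black dots and bars are the limma estimate with its 95% interval, and grey bars the range over 17 alternative analyses. Slc13a5 lies at -2.20 and Fam83h at 0.32, and the interval of Relt spans 0.

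The promoter sequences of the 4 genes that fell at least 2-fold are shown because these genes moved together. They are from RefSeq, mouse build GRCm38.p6, which is older than the build of the deposited table, and run from 250 bases before to 50 bases after the annotated start, 5′ to 3′ on the gene's own strand. Of the 10 genes, 8 had an entry, with 9 windows in all since Slc13a5 had 2 starts. Capitals mark matches, on either strand, to any of 6 motifs: the RUNX motif TGTGGT, the TEAD motif GGAATG, the AP-1 motif TGANTCA, the E-box CACCTG, the GC box GGGCGG and the CArG box.
Slc13a5, upstream start (chr11:72267112-72267411, minus strand): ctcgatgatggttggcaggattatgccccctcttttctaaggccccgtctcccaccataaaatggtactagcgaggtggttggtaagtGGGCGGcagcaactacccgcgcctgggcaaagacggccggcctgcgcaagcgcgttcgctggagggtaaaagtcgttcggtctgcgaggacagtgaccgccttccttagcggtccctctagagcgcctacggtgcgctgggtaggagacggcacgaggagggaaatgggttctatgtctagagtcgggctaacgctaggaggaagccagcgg
Slc13a5, downstream start (chr11:72266555-72266854, minus strand): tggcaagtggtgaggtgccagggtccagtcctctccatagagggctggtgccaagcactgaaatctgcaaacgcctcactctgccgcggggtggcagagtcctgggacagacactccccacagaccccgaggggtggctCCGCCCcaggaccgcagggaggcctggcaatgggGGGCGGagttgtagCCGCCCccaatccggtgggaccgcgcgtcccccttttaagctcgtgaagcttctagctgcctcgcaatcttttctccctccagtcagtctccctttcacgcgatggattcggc
Adgrf4 (chr17:42692235-42692534, minus strand): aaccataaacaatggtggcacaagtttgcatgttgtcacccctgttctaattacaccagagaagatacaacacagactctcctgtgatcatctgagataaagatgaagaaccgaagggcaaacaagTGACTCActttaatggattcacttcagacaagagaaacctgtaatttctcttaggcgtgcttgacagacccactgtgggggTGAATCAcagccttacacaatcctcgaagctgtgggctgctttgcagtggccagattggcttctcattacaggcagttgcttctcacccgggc
Fam20a (chr11:109722189-109722488, minus strand): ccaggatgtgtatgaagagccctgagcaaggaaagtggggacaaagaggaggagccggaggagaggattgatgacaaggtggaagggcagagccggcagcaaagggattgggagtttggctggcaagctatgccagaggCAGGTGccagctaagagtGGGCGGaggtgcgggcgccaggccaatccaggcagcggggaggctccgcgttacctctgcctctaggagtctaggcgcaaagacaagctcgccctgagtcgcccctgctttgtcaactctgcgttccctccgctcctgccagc
Nhs (chrX:162159392-162159691, minus strand): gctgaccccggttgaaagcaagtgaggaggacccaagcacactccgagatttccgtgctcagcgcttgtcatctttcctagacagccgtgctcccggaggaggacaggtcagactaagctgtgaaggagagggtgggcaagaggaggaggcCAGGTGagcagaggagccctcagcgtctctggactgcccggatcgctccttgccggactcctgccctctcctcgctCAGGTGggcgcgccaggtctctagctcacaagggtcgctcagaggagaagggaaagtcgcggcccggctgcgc

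The 4 genes shared no motif in these windows. Both Slc13a5 windows and that of Fam20a held a GC box, as did 6 of the 9 windows of the 10 genes, where 35.7% of 32851 promoter windows of the same length did. The Adgrf4 window held the AP-1 motif, which 7.81% of all windows held, as did that of Gja1, a gene that went the other way. The E-box CACCTG was found in Fam20a and Nhs and in 20.2% of all windows. None of the 9 windows held the RUNX motif (16.8% of all windows), the TEAD motif (14.7%) or the CArG box (1.63%). In base composition the 4 genes differed as well: G and C made up 46.7% of the Adgrf4 window and 60.3% to 63.7% of the other 4 windows, with a median of 52.7% over all windows. A match is a string of letters and not a shown binding site, and its absence says nothing about a factor.

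Of the transport genes, Slc13a5 changed the most. It encodes a sodium-coupled carrier that brings citrate into cells, and its loss in people causes epilepsy in infancy together with defective enamel. In the order of the library numbers, its level was 45.5, 46.1 and 47.1 CPM across the shControl libraries, against 10.1, 8.47 and 9.34 CPM across the shArl4c libraries, from 569 to 686 reads per library down to 113 to 139. Every shArl4c library was far below every shControl library. The log2 fold change was -2.20 (SE 0.08, limma adjusted p = 3.41e-14), which put it in rank 59 from the bottom of the 14740 genes. Exons of Slc13a5 overlap an RNA gene on the opposite strand, 1700051A21Rik, which had 0 to 8 reads per library; without the strand setting of the counting, reads of the pair cannot be told apart. Other genes of citrate transport and use went both ways: of 8 tested, 2 fell, 4 rose and 2 stayed short of the threshold (median log2 fold change 0.09). Ank, which encodes a membrane protein that exports citrate and pyrophosphate, fell 2.40-fold, from 112 ± 2.17 to 46.7 ± 2.84 CPM (SD, n = 3). Aco1, the cytosolic aconitase, fell from 92.8 ± 4.35 to 73.0 ± 4.59 CPM, and Idh1, the cytosolic isocitrate dehydrogenase, rose from 78.5 ± 2.51 to 108 ± 11.6 CPM. The Slc13 relatives measured were near the level of single reads: Slc13a1 and Slc13a4 had 14 reads each over the 6 libraries.

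Cnnm4 encodes a membrane protein of magnesium extrusion, and its mutation causes a syndrome of retinal dystrophy with defective enamel. Its level was 21.3, 19.3 and 23.0 CPM across the shControl libraries, against 14.5, 14.3 and 15.4 CPM across the shArl4c libraries. The groups were apart, with the wider spread in shControl. Its fitted log2 fold change was -0.49 (SE 0.08, limma adjusted p = 9.46e-05). Its relative Cnnm2 went the other way, from 12.0 ± 0.526 to 17.8 ± 0.858 CPM, a 1.48-fold rise (limma adjusted p = 5.14e-05). Cnnm3 stood at 21.7 ± 0.767 and 18.8 ± 0.670 CPM, and its call (limma adjusted p = 0.0453) was lost without shControl 1, 2 or 3 or shArl4c 3 or 4. Of 13 tested genes of magnesium transport 5 fell, 2 rose and 6 stayed short of the threshold (median -0.13). Trpm7, a magnesium-permeable channel with a kinase domain, rose 1.32-fold, from 158 ± 2.66 to 209 ± 3.53 CPM. Slc41a2, a magnesium transporter gene, fell 1.33-fold to 43.1 ± 1.64 CPM, and Ptp4a1, which encodes a phosphatase that binds CNNM proteins, fell 1.23-fold to 115 ± 3.98 CPM.

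Stim1 encodes the sensor of calcium in the endoplasmic reticulum that opens ORAI channels of the plasma membrane when the store empties, and people who lack it have immune deficiency and poorly mineralized enamel. Its level was 71.4, 66.8 and 70.2 CPM across the shControl libraries, against 47.7, 46.6 and 45.3 CPM across the shArl4c libraries. The groups were far apart relative to their spread, with 592 to 993 reads per library. On the log2 scale the change was -0.57 (SE 0.05, limma adjusted p = 4.32e-08). The second sensor gene Stim2 stood at 67.9 ± 2.36 and 64.8 ± 3.21 CPM and did not pass the test, with a 95% interval of the log2 fold change from -0.18 to 0.04. Of 15 tested genes of store-operated calcium entry 7 fell, 3 rose and 5 stayed short of the threshold (median -0.15). Atp2b4, a calcium pump of the plasma membrane, fell 2.29-fold from 98.1 ± 5.20 to 42.8 ± 2.34 CPM. Saraf, a factor that shuts off calcium entry by binding STIM1, fell 1.38-fold to 76.8 ± 1.78 CPM. Itpr3, a channel that releases calcium from the store, rose 1.53-fold from 132 ± 1.80 to 202 ± 5.02 CPM. The channel gene Orai1 (picked with its values known) had means of 6.64 and 5.53 CPM and did not pass.

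Gja1 encodes the main gap junction protein of bone and tooth cells, and its mutation causes a syndrome of eye, tooth and digit defects with thin enamel. It was at 200.1, 189 and 202 CPM in shControl and 220 (shArl4c 2), 209 (shArl4c 3) and 214 CPM (shArl4c 4). The groups did not overlap, but the gap between shControl 3 and shArl4c 3 was about as wide as the SD within a group, 7.01 and 5.95 CPM. The log2 value of the change came to 0.12 (SE 0.04, limma adjusted p = 0.0283). The call was lost with edgeR (adjusted p = 0.0550) and DESeq2 (adjusted p = 0.0852), and without shControl 1 (limma adjusted p = 0.0606), shControl 2 (0.177), shArl4c 2 (0.116) or shArl4c 4 (0.0787). Its relative Gjb2 fell from 5.06 ± 0.349 to 0.399 ± 0.0525 CPM, 12.7-fold (limma adjusted p = 2.09e-09), or from 66 to 72 reads per library to 5 or 6. Gjc1 stood at 26.8 ± 2.54 and 26.1 ± 2.72 CPM and did not pass. Of 6 tested genes of the list of connexins, pannexins and partners 3 fell, 1 rose and 2 stayed short of the threshold (median -0.42). Ccn3, whose secreted product binds the gap junction protein of Gja1, fell 4.96-fold from 11.9 ± 0.575 to 2.39 ± 0.344 CPM, and Tjp1, a junction scaffold that binds it inside the cell, rose 1.19-fold from 159 ± 0.598 to 188 ± 5.14 CPM.

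Fam20a belongs to a family of secretory pathway kinases. Its product has lost kinase activity and acts as an activating partner of FAM20C, a kinase of many secreted proteins, enamel matrix proteins included, and its loss causes thin enamel with calcium deposits in gum and kidney. Its level was 14.9, 13.7 and 13.98 CPM across the shControl libraries, against 6.17, 5.996 and 5.36 CPM across the shArl4c libraries, or 169 to 203 against 70 to 85 reads per library. The groups were apart by more than 7 CPM. The log2 fold change was -1.15 (SE 0.10, limma adjusted p = 3.57e-08), a 2.43-fold fall. Fam20c fell too, by less: from 17.4 ± 0.609 to 12.9 ± 0.631 CPM, 1.36-fold (limma adjusted p = 0.000607). Fam20b, a kinase of proteoglycan sugars, stood at 84.2 ± 3.36 and 86.6 ± 3.20 CPM and did not pass, with a 95% interval of its log2 fold change from -0.06 to 0.14. Of 10 tested secretory pathway kinase genes 4 fell, 1 rose and 5 stayed short of the threshold (median -0.14). The gene that rose was Fam69c (also Dipk1c), from 1.68 ± 0.405 to 3.97 ± 0.595 CPM, and 1190002N15Rik (also Dipk2a) fell 1.20-fold to 63.5 ± 2.97 CPM.

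Of the receptor genes, Adgrf4 fell and Relt did not pass. Adgrf4 encodes an adhesion G protein-coupled receptor, and mice that lack it have undermineralized enamel. Its level was 17.4, 17.95 and 17.2 CPM across the shControl libraries, against 7.77, 6.15 and 6.43 CPM across the shArl4c libraries, from 208 to 267 reads per library down to 82 to 107. The lowest shControl value was more than 2 times the highest shArl4c value. Its fitted log2 fold change was -1.26 (SE 0.10, limma adjusted p = 7.99e-09). The other receptors of its group that were measured, Adgrf1, Adgrf2 and Adgrf5, had means of 0.135, 0.193 and 0.622 CPM and were not tested. Of 13 tested adhesion receptor genes of other groups 8 fell, 4 rose and 1 stayed short of the threshold (median -0.24). Adgrg6, a receptor of nerve sheath and cartilage development, fell 2.80-fold from 62.2 ± 3.66 to 22.2 ± 0.669 CPM. The latrophilin genes Adgrl1 and Adgrl3 fell 1.64-fold to 26.5 ± 0.847 CPM and 3.30-fold to 2.09 ± 0.152 CPM.

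Relt encodes a receptor of the tumour necrosis factor receptor superfamily, and its mutation causes enamel defects. Its level was 14.5, 16.5 and 15.8 CPM across the shControl libraries, against 16.8, 14.3 and 15.8 CPM across the shArl4c libraries. The ranges of the groups overlapped almost wholly, and the means were 15.6 ± 0.982 and 15.6 ± 1.23 CPM. The 95% interval of the log2 fold change ran from -0.18 to 0.18, so a change within these bounds is not excluded. Its relative Rell1 fell 1.304-fold (limma adjusted p = 0.00031), from 33.4 ± 2.39 to 25.6 ± 1.19 CPM. Of 6 tested genes of the RELT family, its kinase partners and related receptors 4 fell, none rose and 2 stayed short of the threshold (median -0.53). Stk39, a stress kinase of ion transport, fell 1.64-fold from 29.0 ± 0.919 to 17.7 ± 0.841 CPM, and the receptor gene Tnfrsf19 fell 1.70-fold from 17.7 ± 1.91 to 10.4 ± 0.254 CPM.

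The scaffold genes went in different directions. Nhs encodes a regulator of actin at the cell edge, and its mutation causes a syndrome of cataract and misshapen teeth. Its level was 29.7, 29.9 and 29.4 CPM across the shControl libraries, against 12.4, 12.9 and 13.8 CPM across the shArl4c libraries. The shControl libraries were closer to each other for Nhs than for any other of the 10 genes, with an SD of 0.824% of the mean. From read numbers alone an SD of 4.998% was due, so this closeness does not show that Nhs varies less than other genes. On the log2 scale the change was -1.13 (SE 0.07, limma adjusted p = 4e-10), a 2.27-fold fall. Its relative Nhsl1 rose 1.36-fold (limma adjusted p = 2.07e-05), from 31.4 ± 2.47 to 42.8 ± 0.656 CPM, and Nhsl2 stood at 9.03 ± 0.811 and 7.94 ± 1.26 CPM and did not pass. Of 10 tested genes of the NHS family and the WAVE complex, which drives actin branching, 2 fell, 3 rose and 5 stayed short of the threshold (median 0.02). Wasf3, one of the WAVE subunits, fell 4.18-fold from 6.13 ± 0.819 to 1.47 ± 0.427 CPM, and Cyfip1, another subunit, rose 1.13-fold to 163 ± 5.99 CPM.

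Fam83h encodes a scaffold that holds casein kinase 1 on keratin filaments, and truncating mutations cause soft, poorly calcified enamel. Its level was 51.5, 54.2 and 54.5 CPM across the shControl libraries, against 68.6, 65.9 and 65.97 CPM across the shArl4c libraries. It was higher in every shArl4c library than in any shControl library. The log2 value of the change came to 0.32 (SE 0.05, limma adjusted p = 4.99e-05), a 1.251-fold rise. Fam83d, a relative at the mitotic spindle, stood at 24.2 ± 0.912 and 27.9 ± 1.62 CPM (limma adjusted p = 0.0328), a call lost under 6 of 17 alternatives, among them leaving out shControl 1, shControl 2 or shArl4c 4. Fam83e stood at 1.73 ± 0.116 and 1.62 ± 0.0751 CPM and did not pass. Of 6 tested genes (FAM83 family, casein kinase 1 and Sytl2) 2 fell, 1 rose and 3 stayed short of the threshold (median -0.03). The 2 that fell were Sytl2 and Csnk1a1. Sytl2, which encodes a vesicle-tethering protein, fell 2.24-fold from 26.4 ± 2.18 to 11.8 ± 0.659 CPM. Csnk1a1, the gene of casein kinase 1 alpha, stood at 299 ± 6.57 and 278 ± 1.503 CPM (limma adjusted p = 0.0465), a call lost under 10 of 17 alternatives, among them leaving out any library but shArl4c 3.

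Tuft1 encodes tuftelin, which was first described as an acidic protein of enamel and later found in the cytoplasm and at desmosomes of many cells. Its level was 14.6, 14.05 and 15.6 CPM across the shControl libraries, against 11.03, 13.9 and 11.3 CPM across the shArl4c libraries. The library shArl4c 3, which stood apart from its group over all genes, lay close to the lowest shControl library. The log2 fold change was -0.27 (SE 0.10, limma adjusted p = 0.0346), a 1.22-fold difference. Without shArl4c 3 it was -0.37 (limma adjusted p = 0.00127). The call was lost with DESeq2 (adjusted p = 0.133) and without shControl 1, 2 or 3 or shArl4c 2 or 4 (limma adjusted p of 0.0879, 0.0578, 0.140, 0.133 and 0.122). Of 5 tested genes of tuftelin partners and the desmosome 1 fell, 1 rose and 3 stayed short of the threshold (median 0.02). Pkp2, a plakophilin gene of the desmosome, fell 1.34-fold from 41.9 ± 0.936 to 31.1 ± 3.31 CPM, and Pkp4, a plakophilin gene of other junctions, rose 1.14-fold to 80.9 ± 3.05 CPM. The desmosomal genes Dsp, Pkp1 and Pkp3, named after their values were seen, were measured at means of 0.337, 0.423 and 0.245 CPM and were not tested.

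The change of 7 of the genes was also set beside that of their relatives. For this, the log2 ratio of CPM + 1 of a gene to that of its relative was taken within each library, a value that hardly depends on how libraries are scaled. Over 12 pairs the ratio of shArl4c libraries did not overlap that of shControl libraries in 10. The ratio of these 7 genes to every tested gene, taken in the same way, did not overlap in 74.3% of 103173 pairs, and the 7 were chosen with their changes known, so the count is a description only. With 3 libraries against 3, a two-sided exact permutation test cannot give a p below 0.10, so none of these pairs could pass a threshold of 0.05. The ratio of Nhs to Nhsl1 went from -0.08 ± 0.10 to -1.64 ± 0.07 (SD, n = 3), a change of -1.57 (exact permutation p = 0.10). That of Cnnm4 to Cnnm2 went from 0.77 ± 0.07 to -0.26 ± 0.07. That of Stim1 to Stim2 went from 0.03 ± 0.03 to -0.47 ± 0.07, and that of Fam20a to Fam20c from -0.28 ± 0.09 to -1.02 ± 0.15. The ratio of Gja1 to Gjb2 rose in value by 2.24, from 5.03 ± 0.06 to 7.27 ± 0.07. Most of this came from Gjb2, whose log2 fold change was -2.11, against 0.12 for Gja1. Gjb2 had 5 or 6 reads per shArl4c library, so the 1 added to CPM shrinks its change. Ratios overlapped between groups for Gja1 to Gjc1 (exact permutation p = 0.30) and for Fam83h to Fam83d (exact permutation p = 0.20).

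**Figure D3:**
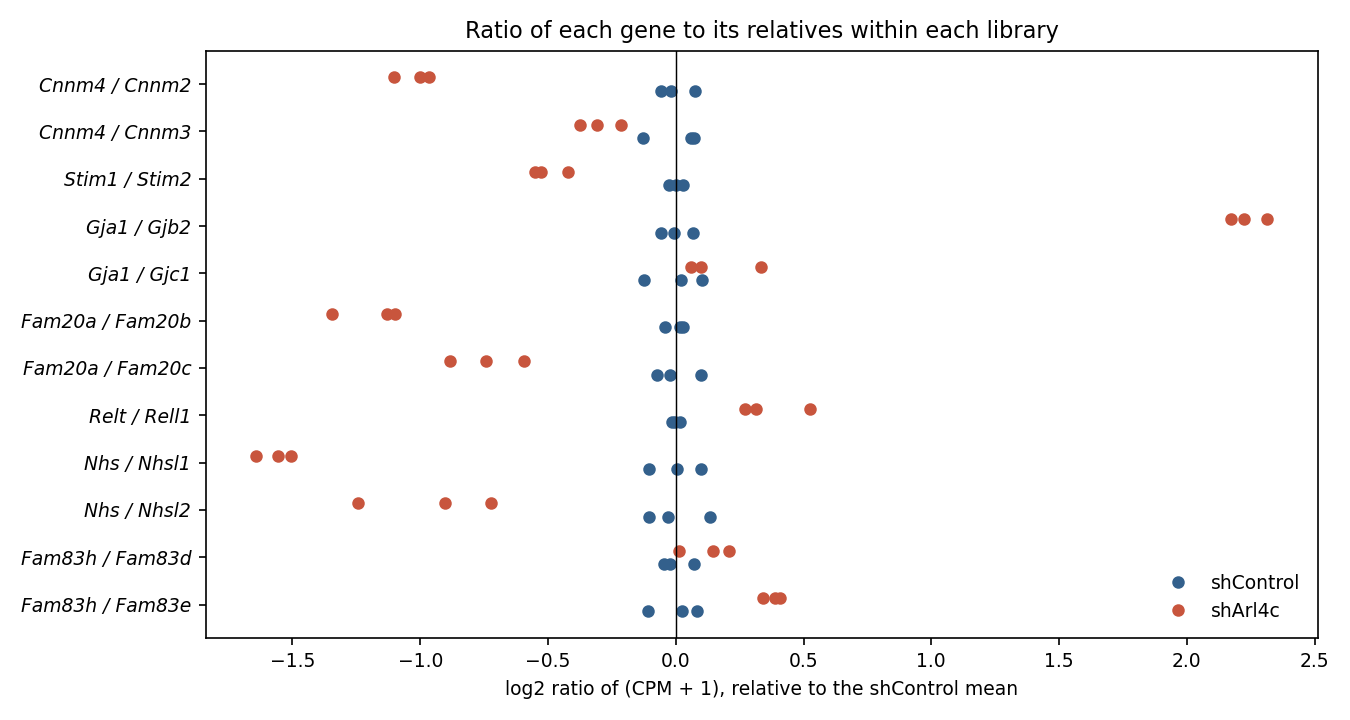
Log2 ratio of CPM + 1 of each gene to a relative within a library, minus the shControl mean of that pair (horizontal axis), for 12 pairs; each dot is 1 library. The shArl4c libraries lie to the left of 0 for the pairs with Cnnm4, Stim1, Fam20a and Nhs, and overlap shControl for Gja1 / Gjc1 and Fam83h / Fam83d.

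A further list held other genes linked to enamel or tooth defects outside the matrix, together with Stim2 and Cnnm2, relatives of Stim1 and Cnnm4. Of 38 listed genes, 33 were measured and 23 tested; 6 fell, 8 rose and 9 stayed short of the threshold (median log2 fold change 0.03). Slc4a4, a bicarbonate cotransporter gene, rose 1.68-fold from 35.6 ± 1.36 to 59.8 ± 2.25 CPM, and Ltbp3, which encodes a binding protein of latent transforming growth factor beta, rose 1.39-fold from 308 ± 7.14 to 429 ± 5.93 CPM. Cftr, a chloride channel gene, fell 3.84-fold from 3.73 ± 0.225 to 0.972 ± 0.353 CPM. This list shares Fam20c, Orai1, Stim2 and Cnnm2 with the lists above. Over all 111 tested genes of the 11 lists 43 fell (38.7%), 27 rose (24.3%) and 41 stayed short of the threshold (median -0.05). Of all tested genes 18.0% fell and 18.9% rose, and the counts of each list are to be read beside these shares. The lists were also chosen with earlier results known, so their shares are a description only. The difference between the 10 genes and the list of other enamel defect genes was not tested, since the 10 were chosen with results known.

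**Figure D4:**
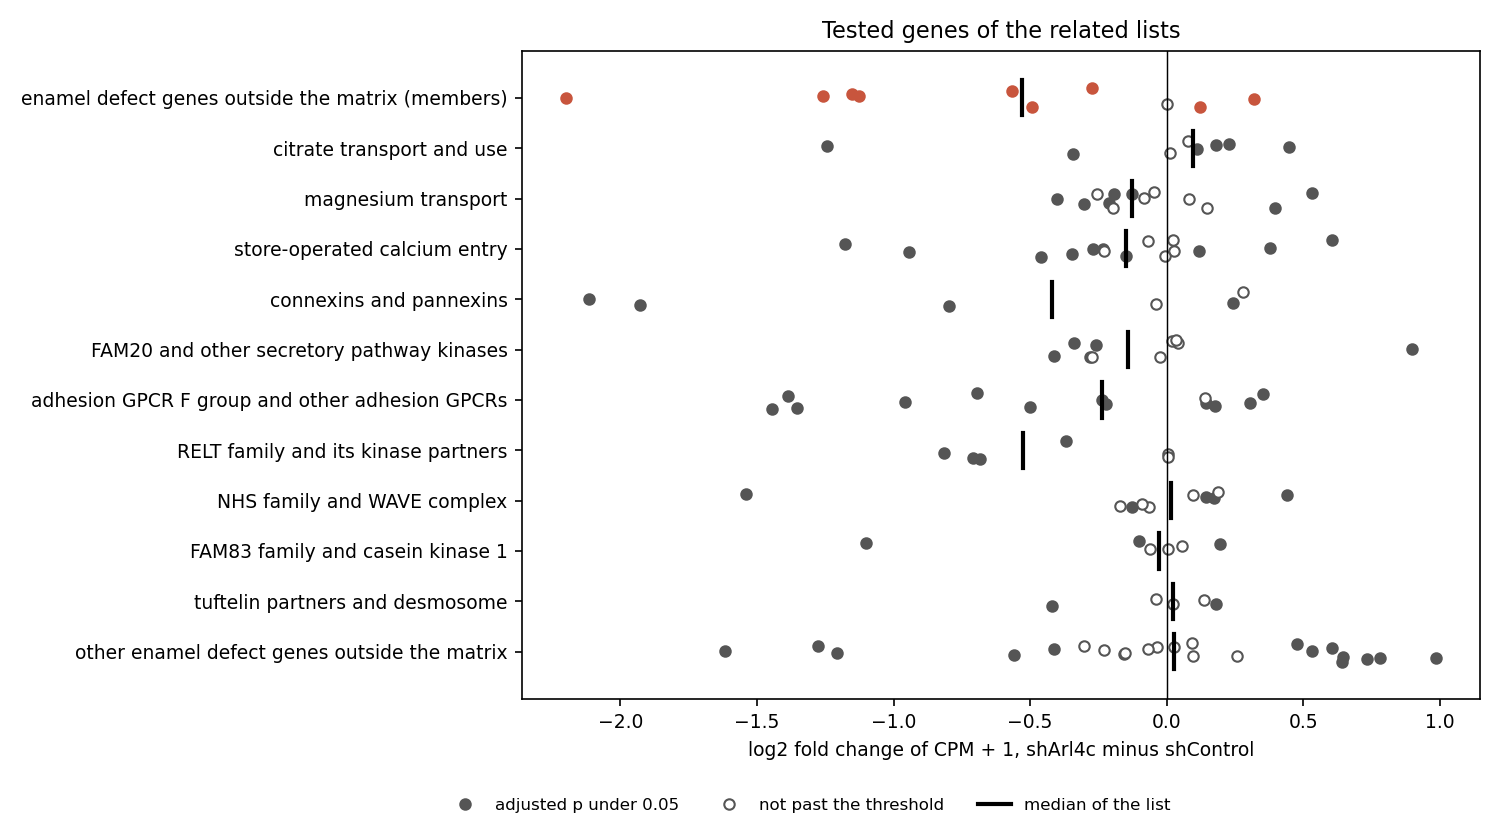
Log2 fold change of CPM + 1, shArl4c minus shControl (horizontal axis), of the tested genes of each list (rows; vertical scatter within a row has no meaning); filled dots passed the limma test, open dots did not, and black bars are list medians. The 10 genes have a median of -0.53, and the list of other enamel defect genes one of 0.03.

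Levels between genes were compared per kilobase of the longest annotated coding transcript. In shControl Gja1 was highest at 61.9 ± 2.20 CPM per kilobase, followed by Stim1 at 15.9 ± 0.547, Slc13a5 at 13.9 ± 0.243 and Fam83h at 11.8 ± 0.363 CPM per kilobase. Adgrf4, Tuft1, Fam20a and Relt lay between 5.73 and 5.47 CPM per kilobase, and neighbours in that order overlapped. Cnnm4 at 4.66 ± 0.407 and Nhs at 3.37 ± 0.0277 CPM per kilobase came last. In shArl4c Gja1 stayed first, at 67.4 ± 1.87 CPM per kilobase, and Fam83h was next at 14.7 ± 0.341, above Stim1 at 10.7 ± 0.275. Slc13a5, in rank 3 in shControl, was in rank 7 in shArl4c, at 2.79 ± 0.244 CPM per kilobase. The order rests on which transcript is used: with the median length of coding transcripts Relt came to 34.0 CPM per kilobase in shControl, in rank 2.

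The spread between libraries differed among the 10 genes. In shControl the SD was 0.824% (Nhs) to 8.74% (Cnnm4) of the mean, and in shArl4c 2.32% (Fam83h) to 12.9% (Tuft1). From read numbers alone an SD of 7.86% was due for Tuft1 in shArl4c, and 5.93% for Cnnm4 and 4.998% for Nhs in shControl. In shControl only Cnnm4, Stim1 and Gja1 had an SD above that due from read numbers. An SD below it, such as that of Nhs, does not show that a gene varies less between libraries. The 3 tested genes whose values over the 6 libraries were nearest to those of Slc13a5, by Euclidean distance of log2 values after subtracting each gene's shControl mean, were Colec10 (distance 0.143), Npnt (0.156) and Kif5c (0.212). Npnt went from 223 ± 4.91 to 50.05 ± 1.68 CPM, Colec10 from 8.83 ± 0.615 to 1.12 ± 0.243 CPM, and Kif5c from 6.55 ± 0.646 to 0.673 ± 0.0845 CPM. In mean CPM Npnt fell 4.46-fold, Colec10 7.91-fold and Kif5c 9.74-fold, against 4.97-fold for Slc13a5. The distance was taken on log2(CPM + 1), which shrinks the change of low genes. Colec10 and Kif5c had 8 to 19 reads per shArl4c library. The likeness of these genes to Slc13a5 is over 6 libraries in 2 groups and was not tested.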

How the data were processed

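The members and the lists of related genes were chosen with earlier results of these data known. The authors deposited 1 table of CPM values per gene and library. Trimmomatic 0.38, RSEM 1.3.0, Bowtie2 and edgeR, and build GRCm39, are listed per the submitters' processing notes, without order or settings. The strand setting of the counting step was not given in the sources used here. All values were whole multiples of what 1 read is worth in their column (100% within 0.001 of a read), which gave back read counts; edgeR called 5303 genes on them. The authors' scaling factors, 0.981 to 1.03, equalled the TMM factors that edgeR computes. Columns named shluc were taken as shControl and those naming the misspelt Arl4c hairpin as shArl4c, mapped to groups and to no single sample. Of 22032 identifiers 21880 matched a symbol.

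The 14740 genes averaging 1 CPM or more were tested by limma 3.58.1 on log2(CPM + 1) (R 4.3.3), with intensity trend and robust moderation, no covariate, and Benjamini-Hochberg adjustment over all tested genes. Fold changes on this scale understate those of low genes; folds given in words are ratios of mean CPM. Recovered reads were tested with edgeR 4.0.16 and DESeq2 1.42.0 as alternatives, beside other pseudocounts, filters and scalings, and leaving out each library. Named in the text, beside the 10 genes and Arl4c, were up to 3 genes of each list with the smallest p past the threshold, tested relatives by symbol, and the 3 genes nearest to Slc13a5; any other was chosen after its values were seen. Transcript lengths were from GENCODE M21 (an older build). Of the connexin list, 1 gene is not reported here and was left out of the list counts and medians.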

Additional observations from a re-analysis of the deposited data

How the results depend on the processing

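Over 17 alternatives (15 planned, and plain CPM by library total and a block on the column numbers, which were chosen after seeing the data), Slc13a5, Adgrf4, Fam20a, Nhs, Stim1, Cnnm4, Fam83h and Arl4c kept their direction and their call, and Relt was never called. The log2 fold change of Slc13a5 ran from -2.32 to -1.84, the least with a pseudocount of 5. Of the 10 genes, 6 or 7 were lower under every alternative. With limma without trend and robust moderation, edgeR and DESeq2, 1 was higher in place of 2, and 1 to 2 when a library was left out. The genes behind these shifts were Gja1, lost in 8 alternatives (adjusted p up to 0.251), and Tuft1, lost in 9 (up to 0.225), among them plain CPM. For the other 42 genes named by the rule, 679 of 706 values kept their call, 27 lost it and 0 reversed. Rescaling by TMM gave the deposited scale again. The shArl4c columns are numbered 2 to 4 where the labels run 1 to 3, and nothing states that a number marks a shared batch, but the numbers 2 and 3 occur in the columns of both groups. With these numbers as a replicate block, which leaves shControl 1 and shArl4c 4 without weight in the difference, 6 of the 10 genes were lower and 1 higher, 15 list genes were higher in place of 27, and over all genes 1768 were lower and 1651 higher in place of 2655 and 2790. Cyfip1 and Pkp4 were among the calls lost (adjusted p = 0.260 and 0.0633). Deviations from the group means of same-numbered libraries had correlations of -0.01 and -0.12 across genes. Those of differently numbered libraries ran from -0.07 to 0.12. Deviations cancel within a group of 3, so these values cannot show whether libraries shared a batch. Read numbers limit precision most for Fam20a and Adgrf4 in shArl4c, at 70 to 107 reads per library.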
